A study of Mus musculus with 54 samples.

Results

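The genes described here encode the subunits of the proteasome, its regulators and its dedicated assembly factors. They were chosen by name: every gene symbol made of Psma, Psmb, Psmc, Psmd, Psme, Psmf or Psmg followed by a number, and named in either the deposited list of accessible regions or the deposited list of Fli1 peaks. This gave 44 of the 17750 genes named in those lists. Of the 44 genes, 41 were named in the accessible list, 40 in the Fli1 list and 37 in both, and these 3 counts follow from the choice. Psma7, Psmc5 and Psmd10 entered through the Fli1 list alone. RefSeq holds 48 genes with such a symbol, and the 4 named in neither list were Psma8, Psmb11, Psmd13 and Psmg2.

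The study profiled chromatin in mouse B-lymphocyte progenitors, in 54 samples that fell into 40 groups. Accessible regions (ATAC-seq) and chromatin contacts came from 230-238, a progenitor B line transformed with Abelson virus and described without a strain, with 2 libraries for each assay merged into 1 list. Contacts were measured by PLAC-seq, which enriches proximity-ligated DNA for a chosen mark, here H3K4me3, a histone mark of active promoters. Fli1 and Ikzf1 peaks came from 1 ChIP-seq library each, from fetal liver ProB cells of Wt C57BL6/J mice cultured on OP9 stroma with cytokines. Accessibility and factor binding shown side by side were therefore measured in different cells, and a line is a single transformed population. E2A-KO and Ebf1-KO fetal liver cells of the same strain and culture entered only the comparison of regions at the end. So did Ebf1-KO cells carrying an Ebf1ER vector, sampled at the start and at later times of a drug treatment that activates Ebf1ER. The drug and the times are given with that comparison. Each group there was 1 column of values, so no comparison has a test across replicates. In such bulk samples, fewer cells with a signal and less signal per cell cannot be told apart.

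The lists held 65093 accessible regions, 27261 Fli1 peaks, 5741 Ikzf1 peaks and 69898 interactions. Among the markers of B-cell progenitors, 7 of 8 had an accessible region within 1000 bp of the start in the 230-238 line. The same held for 2 of 5 T-cell markers (Cd3g and Lck), 1 of 5 myeloid markers (Cebpe), 1 of 5 erythroid markers (Gata1) and 0 of 5 stromal markers.

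The proteasome is the main protein-degrading machine of the cytosol and nucleus. Its 20S core is a barrel of alpha rings, which gate the entrance, and beta rings, which hold the proteolytic sites. The 19S cap recognises ubiquitin-tagged proteins, removes the tag and unfolds the substrate with a ring of ATPases. Immune cells can swap in inducible beta subunits that favour peptides for presentation on MHC class I. Fli1 is a transcription factor of the ETS family, which recognises a GGAA core. Ikzf1 (Ikaros) is a zinc-finger factor of lymphoid cells that binds a GGGAA core.

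Promoter sequences were searched in the RefSeq windows, which run from 250 bases before to 50 bases after each start (GRCm38.p6). Windows were given for 38 of the 44 genes, and none for Psmb1, Psmb2, Psmb7, Psmc3, Psmd3 and Psmd7. Shares are of genes with an accessible window, and a gene with several windows counted once, by a match in any of them. The ETS motif CCGGAAG was present on either strand in 13 of 38 genes (34.2%), against 21.3% of 9677 other genes. The 17 matches in these 13 genes began between 132 bases before and 17 bases after the start. For 11 of the 13 genes a match lay inside the Fli1 peak itself. The lines below show matches inside the peaks of 6 of them, those with the highest Fli1 scores, each with 11 bases on either side. They run 5′ to 3′ on the gene's strand, capitals mark the motif, and CTTCCGG is the same motif on the opposite strand.
Psme3, + strand, chr11:101316095-101316123: gggcacaaggcCCGGAAGctccgacagcc
Psme3, + strand, chr11:101316204-101316232: ctgtgacgcaaCTTCCGGcgtgagcggcg
Psma6, + strand, chr12:55398682-55398710: agagccaccacCCGGAAGcccgcggaccg
Psma6, + strand, chr12:55398812-55398840: ccgccggtgctCCGGAAGcagtagccata
Psma6, + strand, chr12:55398831-55398859: agtagccataaCTTCCGGgagggggcttg
Psmd12, + strand, chr11:107479500-107479528: tgagcgggcgaCTTCCGGtgcgagtgacg
Psmd4, - strand, chr3:95042722-95042750: ttacagctgttCCGGAAGctgctgcgaag
Psmd2, + strand, chr16:20651615-20651643: tccgcagggcgCTTCCGGtctggaggaca
Psmc1, + strand, chr12:100110163-100110191: tggtggatgcaCTTCCGGcggtggcgatt

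A pair of longer upstream stretches shows a promoter with a Fli1 peak beside one without. Psme3 had the highest Fli1 score of all 44 genes, and Psma3 had no Fli1 peak on its accessible promoter. Each line gives the 250 bases before the start on the gene's strand. Capitals mark CCGGAAG and CCAAT, the motif of NF-Y, or its other strand ATTGG. The upstream stretch of Psme3 holds 1 of its ETS matches, and that of Psma3 holds none.
Psme3, + strand, chr11:101315963-101316212: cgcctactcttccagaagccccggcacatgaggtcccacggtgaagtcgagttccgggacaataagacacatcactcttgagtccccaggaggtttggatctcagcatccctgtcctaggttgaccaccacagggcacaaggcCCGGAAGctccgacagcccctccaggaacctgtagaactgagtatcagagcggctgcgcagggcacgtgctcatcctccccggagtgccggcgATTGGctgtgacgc
Psma3, + strand, chr12:70974373-70974622: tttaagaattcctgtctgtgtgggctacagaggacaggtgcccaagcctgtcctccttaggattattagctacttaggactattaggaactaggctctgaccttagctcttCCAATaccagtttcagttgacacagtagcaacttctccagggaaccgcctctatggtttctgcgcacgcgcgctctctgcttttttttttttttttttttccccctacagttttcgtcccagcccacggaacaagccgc

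Since being named in the accessible list was 1 way to be chosen, the counts of accessible promoters that follow are a description. By the authors' naming, which assigns a region to the gene with the nearest start, 39 of the 44 genes (88.6%) had a region within 1000 bp of the start. Of the 17706 other genes named in either list, 9371 had one (52.9%), and the comparisons below are with these. The 5 without were Psma7, Psmb9, Psmc1, Psmc5 and Psmd10. In the RefSeq windows, a reading added after seeing the data, all 38 genes with a window had an accessible region over it, these 5 included. Over all 27025 symbols with a window, 9677 outside the 44 genes had an accessible region over it. The 27025 include genes named in neither list, whereas the 44 were chosen from the lists. The region over the start of Psma7 was named for Ss18l1, that of Psmb9 for Tap1, that of Psmc5 for Ftsj3 and that of Psmd10 for Atg4a, each of which starts on the opposite strand within the same region. The region of Psmc1 was listed at -2065 bp from the start that the authors' annotation used. By either reading, 44 of 44 genes had an accessible promoter, as had 12123 other genes. Psmd13, which is not among the 44, showed the same: its window was accessible under the name Sirt3 and carried a Fli1 peak with a score of 37.6. Psmb11, the subunit of the thymus, had a window with no accessible region.

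The accessible promoters of proteasome genes were of ordinary width. Their median was 1128 bp (quartiles 970 and 1260.5), against 1138 bp (877.5 and 1367) for other accessible promoters. Psma4 and Psmc2 had narrow named regions of 156 and 184 bp. The region over the Psma4 window was wider and named for AY074887. Psmc2 had 2 windows, under wider regions named for Dnajc2 and for Psmc2 itself, and its Fli1 peak lay on the latter. The median GC content of the windows, taken per gene, was 58.8%, against 61% elsewhere. A start on the opposite strand shared the accessible region in 6 of 38 genes (15.8%), against 29.2% of other genes: Psma2 with Mrpl32 and Psme2 with Rnf31, besides the pairs named above.

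Fli1 peaks lay on most proteasome promoters, about as often as on the promoters of ribosomal and respiratory genes, with scores near the median of other promoters. Of the 39 accessible promoters, 33 carried a Fli1 peak (84.6%, Wilson 95% interval 70.3 to 92.8), where 73.6% of other accessible promoters did, a share inside that interval. Cytosolic ribosomal protein genes stood at 85.2% (n = 61) and oxidative phosphorylation genes at 86.0% (n = 57). The score is the authors' peak caller's own value for a peak in 1 library, and it ranks peaks within the list only. Its median at the 33 proteasome promoters was 23.8, against 23.3 at other accessible promoters with a peak, and 18 of the 33 lay above the latter. By either reading the count was 40 of 44, and by the RefSeq window alone 33 of 38, but both include Psma7, Psmc5 and Psmd10, whose Fli1 peak was fixed by the choice. Without these 3 genes the counts were 37 of 41 by either reading (90.2%, interval 77.5 to 96.1), against 75.5% of other genes, and 30 of 35 by the window (85.7%, interval 70.6 to 93.7), against 77.4%. These intervals cover the number of genes only, and the genes were not a random draw.

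**Figure D1:**
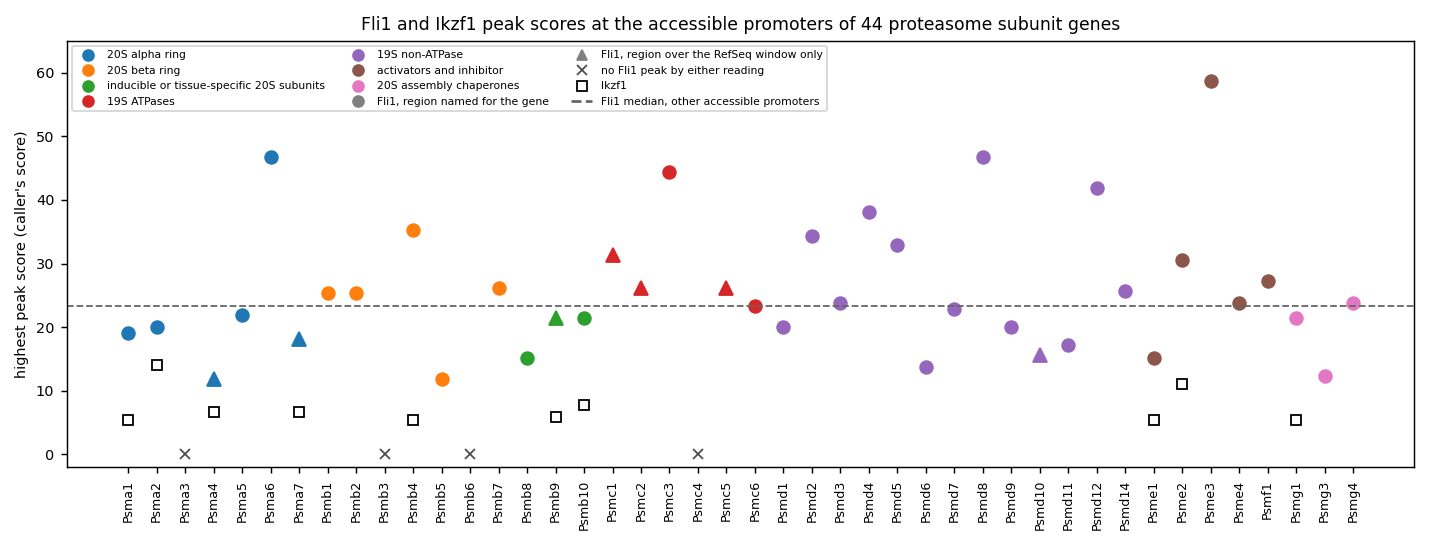
Highest Fli1 peak score (filled symbols, coloured by subunit group) and Ikzf1 peak score (open squares) at the accessible promoter of each of the 44 genes, with no error bars because each factor is 1 library. Crosses mark the 4 genes without a Fli1 peak by either reading, triangles peaks found through the RefSeq window only, and the dashed line the median of other accessible promoters, 23.3; Psme3 is highest at 58.6.

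In the 20S core, Fli1 scores ranged from 11.9 to 46.7 in the alpha ring and from 11.9 to 35.3 in the beta ring, and the rings were not tested against each other. Among alpha subunits, Psma6 had the highest score, 46.7. The others with a peak were Psma5 at 21.9, Psma2 at 20, Psma1 at 19.1, Psma7 at 18.1 and Psma4 at 11.9, the last pair by the RefSeq window. All 5 of these lay below the median of other promoters, and Psma3 had no peak. Among the constitutive beta subunits, Psmb4 was highest at 35.3, followed by Psmb7 at 26.2 and by Psmb1 and Psmb2, both at 25.3. Psmb5, which carries the chymotrypsin-like site, was lowest at 11.9. Psmb6, which carries the caspase-like site, and Psmb3 had no Fli1 peak.

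The inducible beta subunits of the immunoproteasome all had a Fli1 peak by either reading, where 75.5% of other genes did. None scored above the median of other promoters. Psmb9 and Psmb10 had scores of 21.4 and Psmb8 of 15.2. The Psmb8 peak was listed at -570 bp from the start and the Psmb10 peak at 468 bp, whereas 29 of the 37 Fli1 peaks within 1000 bp of a proteasome gene's start lay within 200 bp (78.4%, against 67.1% of such peaks of other genes).

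All 13 non-ATPase genes of the 19S group had a Fli1 peak by either reading, Psmd10 through its choice from the Fli1 list. By that reading 75.5% of other genes had one, as had 88.2% of ribosomal protein genes, so counts in such small groups are a description. The 13 genes encode subunits of the lid and base and, in Psmd5, Psmd9 and Psmd10, chaperones of 19S assembly. Psmd8 was highest at 46.7, followed by Psmd12 at 41.9 and by Psmd4, a ubiquitin receptor, at 38.1. Psmd2, a scaffold, had a score of 34.3 and Psmd14, the deubiquitinase of the lid, one of 25.7. Psmd10 at 15.7 and Psmd6 at 13.8 were lowest. Of the 6 ATPases, 5 had a peak, with Psmc3 at 44.3, Psmc1 at 31.4, Psmc2 and Psmc5 at 26.2 and Psmc6 at 23.3, while Psmc4 had none. Psmc1, Psmc2 and Psmc5 rest on the RefSeq window, and Psmc5 was chosen from the Fli1 list.

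All 5 activators and inhibitors had a Fli1 peak, where 73.6% of other accessible promoters did. Psme3, the nuclear activator PA28 gamma, had the highest score of the family at 58.6. Psme2 and Psme1, which form the interferon-inducible PA28 activator together, had scores of 30.5 and 15.2. The peak at Psme2 lay on the region shared with Rnf31 and was not named for Psme2. Psmf1, an inhibitor of the 20S core, stood at 27.2 and Psme4, the activator PA200, at 23.8. The chaperones of 20S assembly had scores of 23.8 for Psmg4, 21.4 for Psmg1 and 12.4 for Psmg3. Among the Fli1 scores of other accessible promoters, 5 of the 33 named-region scores reached the top decile (15.2%): those of Psme3, Psma6, Psmd8, Psmc3 and Psmd12.

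ETS matches and Fli1 peaks went together, in proteasome genes as in others. All 13 genes with CCGGAAG in the window had a Fli1 peak on the region over it, and 20 of the 25 genes without it did, Psma7, Psmc5 and Psmd10 among the 20. Among other genes with an accessible window the shares were 92.1% with the motif and 73.4% without. The 4 genes with no Fli1 peak by either reading, Psma3, Psmb3, Psmb6 and Psmc4, had no match, which says only that these letters are not in this window.

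**Figure D2:**
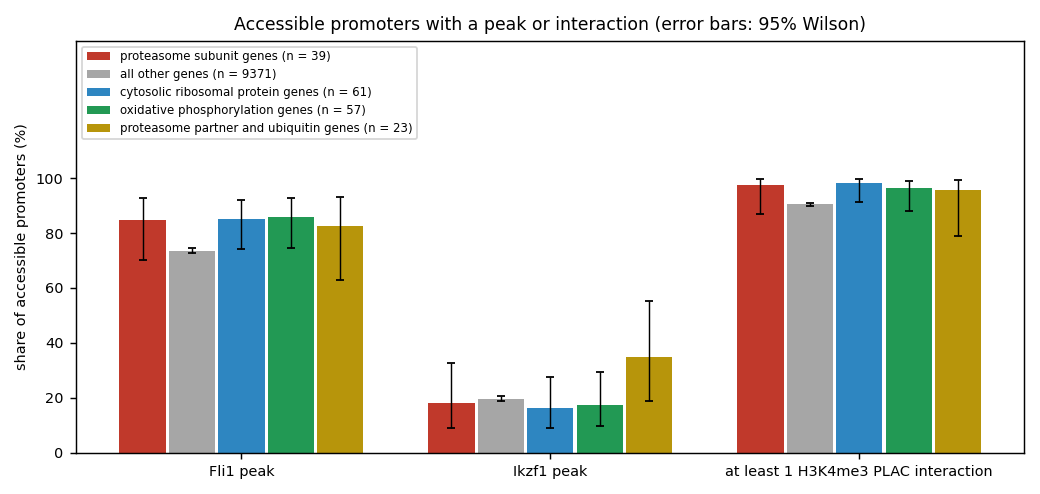
Share of accessible promoters (%) with a Fli1 peak, an Ikzf1 peak or at least 1 PLAC-seq interaction, for proteasome genes, all other genes and 3 gene groups shown for comparison; bars are shares and error bars Wilson 95% intervals. Proteasome genes stand at 84.6%, 17.9% and 97.4%, beside 73.6%, 19.8% and 90.5% for all other genes.

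Ikzf1 peaks were found at few proteasome promoters. There were 7 among 39 (17.9%, Wilson 95% interval 9.0 to 32.7), against 19.8% of other accessible promoters, and none at a 19S gene. All 7 also carried Fli1, as did 92.5% of the 1851 other promoters with Ikzf1. The highest score was at Psma2, 14.1, on the region it shares with Mrpl32. Next were Psme2 at 11, on the region it shares with Rnf31, and Psmb10 at 7.84. Psma1, Psmb4, Psme1 and Psmg1 all had a score of 5.49, low in a list whose median was 7.05. The RefSeq windows added Psma4 and Psma7 at 6.66 and Psmb9 at 5.88, and the 10 of 38 then stood above other genes (26.3% against 21.05%). The direction of the Ikzf1 difference thus depended on how a promoter was assigned to its gene.

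The Ikaros letters TTTCCCA and TGGGAA overlap, because the reverse of TTTCCCA holds TGGGAA. Either was present on either strand in 12 of 38 genes (31.6%), against 24.1% elsewhere. Of these 12 genes 5 had an Ikzf1 peak, as had 5 of the 26 without the letters. In other genes the shares were 23.1% and 20.4%. A match lay inside an Ikzf1 peak for the inducible subunits Psmb9 and Psmb10. For Psmb10 this was the lower of its 2 Ikzf1 peaks, with a score of 6.66. These matches are shown here with the motif in capitals on the gene's strand.
Psmb9, - strand, chr17:34187503-34187531: cttgcgtgaatTTTCCCAtcccaggcccc
Psmb10, - strand, chr8:105938503-105938530: cctgagtttggTTCCCAacgcccacgtg

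Motifs of other regulators were not more frequent, apart from that of YY1. The CNC-bZIP motif TGACNNNGC is bound by Nfe2l1 and Nfe2l2, factors known to raise proteasome genes when proteolysis is impaired. It was present in 6 of 38 genes (15.8%), against 15.99% elsewhere. CCAAT was present in 31.6% against 40.7%, GGGCGG (Sp1) in 60.5% against 66.7% and TGACGTCA (CRE) in 0 of 38 against 3.59%. AAGATGG (YY1) was present in 7 of 38 (18.4%), against 8.47%. All were searched on both strands. The CNC-bZIP matches on the gene's strand, those of Psmb5, Psmb6 and Psmd9, are shown with the motif in capitals. Those of Psmc6, Psmd12 and Psme4 lay on the opposite strand and are not shown.
Psmb5, - strand, chr14:54618023-54618053: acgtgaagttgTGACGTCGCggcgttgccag
Psmb6, + strand, chr11:70525337-70525367: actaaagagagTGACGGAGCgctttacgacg
Psmd9, + strand, chr5:123228148-123228178: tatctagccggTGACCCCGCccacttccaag

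**Figure D3:**
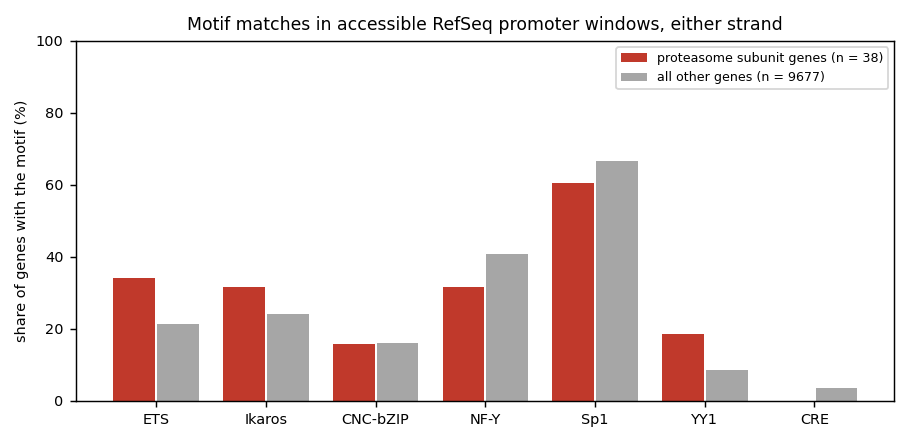
Share of genes (%) with each motif on either strand in an accessible RefSeq promoter window, for 38 proteasome genes (red) and 9677 other genes (grey), with no error bars. ETS stands at 34.2% against 21.3% and YY1 at 18.4% against 8.47%, while CNC-bZIP is level at 15.8% and 15.99%.

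Genes that work with the proteasome had Fli1 peaks at a like share. Of 31 such names, some of them older and newer symbols of the same gene, 25 occurred in the data. By the authors' naming, 23 had an accessible promoter and 19 of these a Fli1 peak (82.6%), where 73.6% of other accessible promoters did. Pomp, which helps the core mature, had a score of 52.9, the ubiquitin ligase Ube3c one of 48.1 and the ubiquitin receptor Adrm1 one of 47.2. Ufd1, accessible by the RefSeq window only and not among the 23, had a higher score of 75.8. Ube3a, Nfe2l2, Vcp and the peptide transporter gene Tap2 had none. Ikzf1 peaks lay on 8 of the 23 (34.8%, Wilson interval 18.8 to 55.1), among them Ubb at 15.3. The share of other accessible promoters, 19.8%, lies inside that interval. The 8 include Tap1, whose region is also that of Psmb9.

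In the contact map, nearly every proteasome promoter had at least 1 interaction. An interaction is a pair of 5000-bp bins listed by the authors at a q-value of at most 0.05. Of the 39 accessible promoters, 38 had one (97.4%, Wilson 95% interval 86.8 to 99.5), against 90.5% of other accessible promoters, a share inside that interval. Ribosomal protein genes stood at 98.4% and oxidative phosphorylation genes at 96.5%. The median was 7 interactions per promoter (quartiles 4 and 10.5), against 6 (2 and 9). Psmf1 alone had none. Psmb3 and Psmb10 had 19 each, Psme3 16, and Psma2 and Psme4 14 each, while Psmd6, Psmd11 and Psmd12 had 2 each.

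Of the 299 partner ends of proteasome promoters, 102 held another accessible promoter (34.1%, against 30.5% for other genes). A further 90 held an accessible region without a promoter (30.1% against 31.1%) and 107 held no accessible region (35.8% against 38.4%). The median distance was 160 kb, against 135 kb, at the same median contact count of 18. Ebf1-bound regions were at 4 ends (1.34%, against 2.97%), those of Psmb1, Psmd9, Psmd14 and Psme4. Named partners are given for the 5 promoters with most interactions among those with a named region. Psmb3 contacted the promoter bin of Rpl23, a ribosomal protein gene, with 68 contacts over 80 kb, and also those of Cwc25 with 48 and Lasp1 with 32. Psme3 contacted Vps25 with 45 contacts, Rpl27, another ribosomal protein gene, with 35 and Rundc1 with 21. Psmb10 contacted Dus2 with 46 contacts, Psma2 contacted AW209491 with 60, and Psme4 contacted Chac2 with 16.

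**Figure D4:**
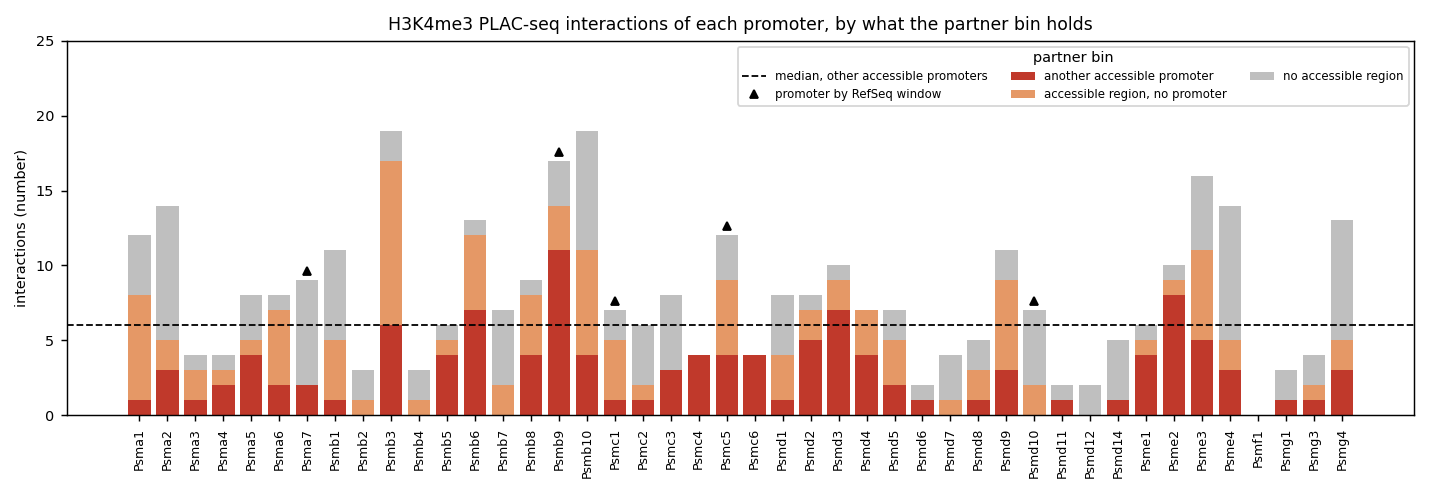
Number of H3K4me3 PLAC-seq interactions of each gene's promoter, stacked by what the partner bin holds (another accessible promoter, an accessible region without a promoter, or no accessible region); triangles mark promoters taken from the RefSeq window and the dashed line the median of other accessible promoters, 6. Psmb3 and Psmb10 reach 19, and Psmf1 has none.

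A few further contacts are given as single pairs, chosen after their values were seen and not as a theme of the partners. Psmb9 and Psmb8, neighbours within the MHC locus, were the only pair of proteasome promoters that interacted, with 138 contacts over 10 kb. The Psmb9 bin, which also holds the start of Tap1, had 17 interactions in all, 11 of them with other promoters. Its neighbours there are MHC genes by position, and they included the class II genes H2-DMb1 with 35 contacts and H2-Ob with 34, and the class I gene H2-K1 with 16. Psme2, whose accessible region is shared with Rnf31, contacted the promoter bin of Irf9, a factor of interferon signalling, with 124 contacts over 10 kb. Psma6 contacted that of Nfkbia, the inhibitor of NF-kappa B, with 61 contacts over 95 kb. The most frequent contact of the family was that of Psmc6 with Ero1l, 168 over 10 kb. Contact counts are higher at short distance, so counts over unlike distances are not comparable.

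Only Psme4 and Psmd10 appear in the region tables that compare genotypes, which hold regions near genes the study selected as enriched in Wt. The values are ATAC, ChIP or CUT&RUN tags per 10000000 library tags, from libraries or pools of 2.46e+07 to 1.96e+08 tags. CUT&RUN was used for H3K27ac alone. The Poisson 95% intervals cover counting error only. In the E2A-KO table, 3 of the 6 regions named for these genes were at least 2-fold lower in E2A-KO, and 37.6% of all 4829 regions were. The median log2 ratio of all regions was -0.76. The promoter of Psme4 (mm10 chr11:30771177-30773044, over exon 1) had 49.4 tags in E2A-KO (44.8 to 54.4) and 79.8 in Wt (75.4 to 84.4). Its log2 ratio of -0.68 was close to that median, and relative to it the sign turned (0.080).

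The regions around that promoter were lower by a larger factor. An intergenic region at -1460 bp from the Psme4 start (chr11:30770158-30770472) had 2.1 tags in E2A-KO (1.24 to 3.32) and 11.1 in Wt (9.46 to 12.8). A region in an intron, 10113 bp after the start (chr11:30781669-30782107), had 2.1 tags in E2A-KO (1.24 to 3.32) and 8.19 in Wt (6.83 to 9.76). The intervals of E2A-KO and Wt do not overlap in either region. Their log2 ratios were -1.96 and -1.57, or -1.20 and -0.81 once the median over the table is subtracted, so that the intron region was then less than 2-fold lower. The regions named for Psmd10 are intergenic and lie about 200 kb from its start, which is only the nearest one. That at chrX:141157397-141158265 had 3.38 tags in E2A-KO (2.26 to 4.86) and 19.1 in Wt (17.0 to 21.4). That at chrX:141156607-141157046 had 3.03 (1.98 to 4.44) and 6.37 (5.17 to 7.77), a log2 ratio of -0.87, or -0.11 relative to the median. That at chrX:141158301-141158474 had 1.75 (0.98 to 2.88) and 1.5 (0.95 to 2.24), with overlapping intervals.

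**Figure D5:**
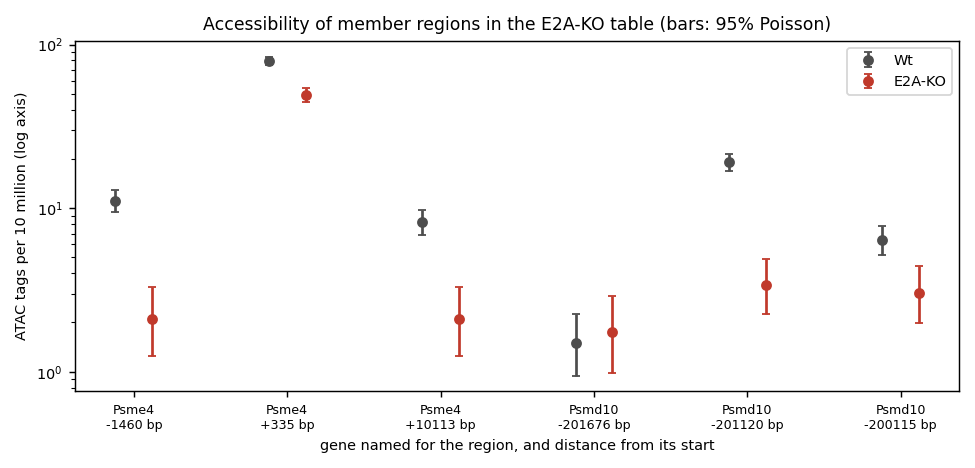
ATAC tags per 10000000 library tags (log axis) in Wt (grey) and E2A-KO (red) at the 6 regions named for Psme4 and Psmd10, by distance from the start; points are single pooled columns and bars Poisson 95% intervals. The Psme4 promoter is at 79.8 in Wt and 49.4 in E2A-KO, and the intron region at 8.19 and 2.1.

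In Ebf1-KO cells, H3K4me3 and RNA polymerase II were not lower than in Wt at the Psme4 promoter, while several signals were lower in the intron region and RNA polymerase II also in the region at -1460 bp. H3K4me3 at the promoter was 313.3 tags in Ebf1-KO (305.5 to 321.2) and 179.6 in Wt (170.2 to 189.3). RNA polymerase II at the promoter was 58.1 (49.7 to 67.6) and 51.9 (43.5 to 61.5), with overlapping intervals. In the intron region, RNA polymerase II was 1.71 in Ebf1-KO (0.56 to 3.99) and 8.97 in Wt (5.69 to 13.5), and H3K4me2 was 1.44 (0.53 to 3.13) and 7.04 (4.72 to 10.1). BRG1, the ATPase of a chromatin remodeller, was 4.4 in Ebf1-KO (2.73 to 6.73) and 10.0 in Wt (7.51 to 13.1). The median log2 ratio of all regions in these tables was -0.67 for RNA polymerase II, -0.18 for H3K4me2 and -0.29 for BRG1, against -1.88, -1.72 and -1.03 in the intron region. In the region at -1460 bp, RNA polymerase II was 0.68 in Ebf1-KO (0.083 to 2.47) and 8.97 in Wt (5.69 to 13.5), a log2 ratio of -2.57, and H3K4me2 was 9.11 (6.45 to 12.5) and 9.47 (6.74 to 13.0). H3K27ac in the intron region, measured by CUT&RUN and not ChIP, was 4.81 (2.56 to 8.23) and 5.7 (3.12 to 9.57), and the intervals overlap. Its log2 ratio of -0.21 was above the median of all regions, -0.70. H3K4me3 in the intron region was 0.92 in Ebf1-KO (0.54 to 1.45) and 5.09 in Wt (3.62 to 6.96).

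The same intron region is Ebf1-bound by the authors' list from the 230-238 line. Among the PLAC-seq partners of the Psme4 promoter its bin had the highest count, 94 contacts over 10 kb at a q-value of 2.27e-05. Since 10 kb is the shortest distance listed and counts are higher at short distance, this does not rank it against partners farther away. When Ebf1ER was activated with 4OHT in Ebf1-KO cells, the accessibility of the intron region was 2.54 tags at 0 h (1.31 to 4.43), 2.3 at 6 h (1.00 to 4.54), 4.64 at 24 h (2.70 to 7.43) and 3.17 at 72 h (1.58 to 5.67). All 4 intervals overlap, so no change was detectable at this depth. The 6 h and 72 h pools were listed with the same library total, 3.471e+07 tags. Their intervals rest on it, and whether it holds for both pools could not be checked. The log2 ratios of the region to 0 h were -0.10 at 6 h, 0.67 at 24 h and 0.24 at 72 h. The medians of all 1172 regions were 0.26, 0.47 and 0.50.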

How the data were processed

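Per the submitters' processing notes, the tools were Trim Galore 0.6.4, Bowtie2 2.3.5, SAMtools 1.9, HOMER 4.10, deepTools 3.3.1 and HiC-Pro 2.11.1, with Picard, MACS2, FastQC and edgeR without versions; the build was mm10. Peak scores are the authors' caller's values, per the file headers. Signal in the region tables is tags per region, deposited by the authors scaled to 10000000 tags per library. Contact counts and q-values of interactions were deposited by the authors. From these, regions, peaks (minimum overlap 1 bp) and bins were intersected with Python 3.11.15, pandas 2.3.3, numpy 2.4.6 and SciPy 1.17.1, tested on simulated data first. Log2 ratios use value plus 1. Tags recovered from library totals gave the Poisson intervals. Every gene of the name pattern may be named, as may a list of partner genes, genes sharing a region with one, and up to 3 promoter partners of the 5 genes with most interactions. Members and lists were chosen with earlier results of these data known. By its name, the Wt ATAC column merges more libraries than the 3 labelled. The antibody label of the Wt EP300 library is in doubt, so EP300 is not reported. In the region tables, 2 value columns matched no labelled sample and were not used. Replicates are not said to come from separate animals.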

Additional observations from a re-analysis of the deposited data

How the results depend on the processing

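No paired analysis was possible because each group is 1 merged list or 1 column, and for the same reason no replicate could be left out. Fli1 was more frequent at proteasome promoters than at others in 11 of 11 settings (71.8 to 91.7% against 44.6 to 82.5%), with Psma7, Psmc5 and Psmd10 left out of the 3 settings that would count them, as were interactions in 11 of 11 (97.2 to 100% against 84.7 to 93.8%). Ikzf1 was more frequent in 4 of 11. With only regions annotated promoter-TSS, 25 proteasome genes had an accessible promoter, 20% of them with Ikzf1 (18.4% elsewhere) and 100% with an interaction (89.9%). Ikzf1 stood at 26.3% (21.05%) by RefSeq window, 22.7% (20.5%) by either reading, 7.69% (10.6%) with peaks at or above the list's median score, and 15.9% (11.3%) with no accessible region needed. The RefSeq window, either reading and leaving out those 3 genes were chosen after seeing the data. On the gene's strand only, motif shares were 21.1% against 11.9% for ETS, 36.8% against 45.4% for Sp1 and 26.3% against 24.2% for NF-Y. Relative to the median of all regions, the Psme4 promoter in E2A-KO stood at 0.080 (log2), and 2 of 6 regions in place of 3 were at least 2-fold lower. Of 72 alternatives over regions, 65 stayed within the counting error, 6 moved further and 1, the Psme4 promoter in E2A-KO, was counted as turned. Relative to the median the sign also changed for H3K27ac at that promoter (log2 -0.25 to 0.44), counted as moved. Within the counting error, the sign changed for H3K27ac at the other Psme4 regions and for H3K4me2 in the upstream one. The same held for Ebf1ER accessibility of the intron region at 72 h. Depth limits regions of few tags.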
